A study of Mus musculus with 18 samples.

Results

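The proteins that choose splice sites, and the RNA-binding proteins that share their symbols' first letters, were compared in the middle part (of 3) of mouse embryos at embryonic day 9.5. The members were taken by symbol: every probe set annotated to 1 gene whose symbol begins with Srsf, Hnrnp, Ptbp, Sf3a, Sf3b, U2af, Snrp or Rbm, with Snrpn left out. This gave 67 probe sets of 49 genes, out of 7542 probe sets of 6137 genes with 1 symbol. A probe set is a group of short oligonucleotides on the array that is read as 1 value. The 3 genotypes of Nkx2-5 (Csx), the gene of a homeobox factor that acts in early heart muscle, were collected: wild type, heterozygous and homozygous mutant. The labels describe the mutants as a model of congenital heart disease. Total RNA of each genotype was hybridised to 3 arrays of each of 2 array types, a and b, which makes 18 arrays. The labels number the wild-type replicates 1, 5 and 7, the heterozygous replicates 3, 4 and 8, and the homozygous mutant replicates 2 and 6 on both types, and the last mutant array 8 on type a and 9 on type b (here 8a and 9b). The sources used here do not give strain, litter or allele, nor whether embryos were pooled, so the p-values measure only how these samples varied, which may be technical spread.

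SR proteins carry RNA recognition motifs and a tail rich in arginine and serine. They bind enhancer sequences in exons and recruit the spliceosome to the nearby splice sites, while many hnRNPs bind the same transcripts and oppose that choice. The small nuclear ribonucleoproteins (snRNPs), the SF3A and SF3B complexes and U2AF form the machinery that recognises the splice sites themselves. In the mouse heart, loss of single SR proteins such as Srsf1 or Srsf2 is known to disturb splicing in muscle cells and heart function.

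Values are the authors' scaled intensities, and a probe set was tested where it exceeded a floor of 375.1 on type a or 523.1 on type b on at least 3 of 9 arrays. Of the members, 63 probe sets of 48 genes passed, and 4 did not: the set of Rbm33, both type b sets of Rbm42 and 1 of 4 sets of Hnrnpab. The other tested features bring the total to 6935. The mutated gene had no probe set of its own symbol, so its level was not analysed here and did not check the genotype labels. Of 14 heart muscle markers, 9 had a probe set of 1 symbol, and all 9 passed the same filter. Of 9 markers of red blood cells 7 had such a set and 6 passed. Of 18 markers of neural cells 14 had one and 11 passed, so the tissue was a mixture. Mutant arrays 8a and 9b stood apart in their control signals: the ratio of the 3′ to the 5′ actin control was 2.51 and 2.302, against 0.967 to 1.417 on the other type a arrays and 0.849 to 1.404 on the other type b arrays. Their mean signal for the spiked control BioB was 2076 and 2423, against at most 785 and 1289 on the others. Many of the estimates that moved with these arrays are given with and without them.

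Srsf6, which encodes the SR protein also known as SRp55, was the 1 member gene lower in the mutant at an adjusted p under 0.05, on type b only. Its type b probe set read 6421, 5646 and 4874 in wild type 1, 5 and 7, then 4400, 4503 and 4734 in heterozygous 3, 4 and 8, and 2487, 2258 and 2048 in homozygous mutant 2, 6 and 9b. Every mutant array lay below every heterozygous array, and every heterozygous array lay below every wild-type array. Against wild type (5647 ± 773.4, SD, n = 3) the mutant mean of 2264 ± 219.4 (n = 3) was 2.49-fold lower on the fitted scale. The log2 fold change was -1.31 (SE 0.178, 95% interval -1.71 to -0.92, limma adjusted p = 0.00783 over all 6935 probe sets). This probe set ranked 12 by p-value among all those tested. Without mutant arrays 8a and 9b the log2 fold change was -1.24, and the set was still called. Without wild type 5 the fold change was -1.31 with an adjusted p of 0.0514, and with only wild type and mutant arrays in the fit the adjusted p was 0.0691, so the call depends on that array and on the shared estimate of spread. In whole tissue, fewer cells of a type that expresses Srsf6 and less Srsf6 RNA per cell cannot be told apart.

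The type a probe set of Srsf6 gave a smaller difference in the same direction. It read 4152, 3574 and 4566 in wild type, 3997, 4296 and 4136 in heterozygous embryos, and 2500, 2861 and 2664 in homozygous mutants. The mutant arrays again lay below all others, but wild type and heterozygous arrays overlapped. The log2 fold change of mutant against wild type was -0.61 (SE 0.148, 95% interval -0.93 to -0.29) and did not pass the threshold (limma adjusted p = 0.111). It was also -0.61 without array 8a. The 2 sets disagree on the heterozygous embryos: the log2 difference from wild type was -0.30 at the type b set (95% interval -0.70 to 0.09) and 0.02 at the type a set (-0.30 to 0.35), with limma adjusted p-values of 1 for both.

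**Figure D1:**
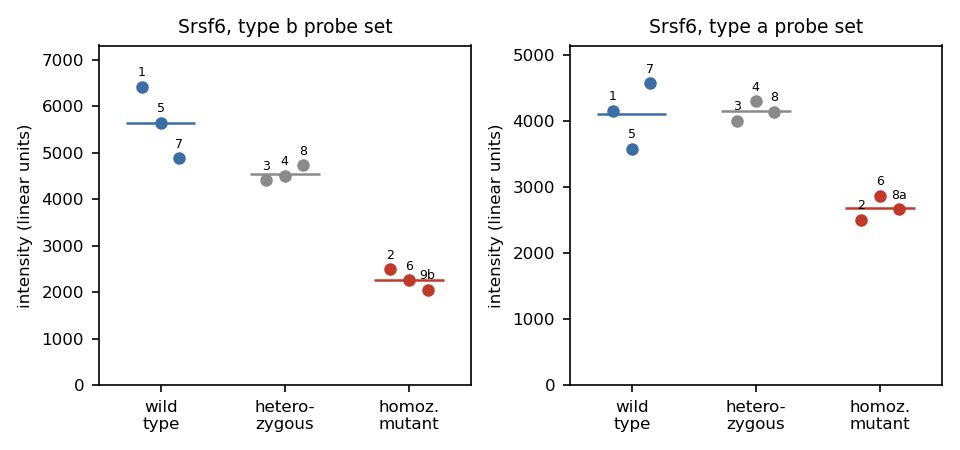
Intensity of both Srsf6 probe sets (vertical axis, linear units, from 0) on every array by genotype; points carry the replicate number of the labels and bars are genotype means of 3 arrays. On both array types the 3 homozygous mutant arrays lie below all others, while heterozygous arrays lie below wild type only on type b.

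The region before the transcription start is shown for Srsf6, for Srsf2 and Hnrnpdl, which had the next lowest p-values among genes that read lower in the mutant without overlap, and for Srsf5, a family member with a fold change of 0.00. These are the 250 bases before the start in RefSeq (build GRCm38.p6), with matches to any of 5 short motifs in capitals.
Srsf6, chr2:162931258-162931507, plus strand: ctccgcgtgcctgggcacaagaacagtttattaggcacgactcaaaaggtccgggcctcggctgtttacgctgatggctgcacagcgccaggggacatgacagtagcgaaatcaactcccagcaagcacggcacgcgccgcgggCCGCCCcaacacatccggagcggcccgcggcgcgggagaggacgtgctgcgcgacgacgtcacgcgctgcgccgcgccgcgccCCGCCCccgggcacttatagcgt
Srsf2, chr11:116853095-116853344, minus strand: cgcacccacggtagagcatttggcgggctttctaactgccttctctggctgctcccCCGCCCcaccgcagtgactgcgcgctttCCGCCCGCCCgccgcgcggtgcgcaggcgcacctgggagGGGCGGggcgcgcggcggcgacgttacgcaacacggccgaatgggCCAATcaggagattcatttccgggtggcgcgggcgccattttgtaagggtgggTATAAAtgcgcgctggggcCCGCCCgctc
Hnrnpdl, chr5:100039223-100039472, minus strand: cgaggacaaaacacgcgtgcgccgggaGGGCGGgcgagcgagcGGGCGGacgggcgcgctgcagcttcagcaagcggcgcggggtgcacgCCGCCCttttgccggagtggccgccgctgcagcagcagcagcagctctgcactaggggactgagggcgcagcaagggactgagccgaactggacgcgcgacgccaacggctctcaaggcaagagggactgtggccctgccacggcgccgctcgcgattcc
Srsf5, chr12:80945249-80945498, plus strand: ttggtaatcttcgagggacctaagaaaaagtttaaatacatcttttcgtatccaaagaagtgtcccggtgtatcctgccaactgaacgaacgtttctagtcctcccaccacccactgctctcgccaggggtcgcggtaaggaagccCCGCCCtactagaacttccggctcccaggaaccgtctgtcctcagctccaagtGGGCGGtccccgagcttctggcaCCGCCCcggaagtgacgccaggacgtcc
The motifs, searched on both strands, were TNAAGTG (the core bound by NK2 homeobox proteins such as Nkx2-5), CCAAT (the CCAAT box), GGGCGG (the GC box), CACGTG (an E box) and TATAAA (the TATA box). In the Srsf6 window the capitals mark 2 GC boxes, whose first bases lie 106 and 23 bases before the start, and no other motif. Srsf2 held 5 GC boxes, of which a pair overlaps, 1 CCAAT box and 1 TATA box, and Hnrnpdl and Srsf5 held 3 GC boxes each. The NK2 letters were in none of these windows. They were found in 8.93% of the 56 member promoters, which belong to 43 matched genes, and in 10.1% of all 32851 promoters of the same length. The 4 member genes with them were Srsf1, Hnrnph1, Hnrnpk and Snrpg. The GC box was in 57.1% of member promoters against 32.7% of all. Counted by gene, with any of its promoters, 25 of 43 member genes and 7 of 8 SR genes had it. The 4 windows above were 68.4%, 69.6%, 72% and 56.8% G or C, and the median of all promoters was 52.4%. The part of base composition in these shares was not tested. A match describes letters in the window and is not a bound site.

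The other SR proteins on the arrays were read by 10 probe sets of 7 genes, and none passed the threshold. Srsf2 (SC35), which binds exonic enhancers and is itself a known component of nuclear speckles, came closest. Its set read 10466, 12899 and 10274 in wild type, 11642, 12334 and 12949 in heterozygous embryos, and 6206, 9746 and 4218 in homozygous mutants. The mutant arrays lay below all others and were spread more widely than those of the other genotypes. The log2 fold change against wild type was -0.81 (95% interval -1.35 to -0.28, limma adjusted p = 0.201), and -0.52 without array 8a.

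Srsf1 (SF2/ASF), a general splicing activator, had 4 probe sets with estimates of -1.04 and -0.86 on type a and -0.66 and -0.50 on type b. The first of them had an unadjusted limma p of 0.015 (adjusted p = 0.293), and it read 959.2, 1611 and 2309 in wild type against 795.9, 1071 and 485.7 in mutants, groups that overlap. Without 8a and 9b the 4 estimates were -0.73, -1.05, -0.26 and -0.03. The type b sets thus moved toward 0, and both read lowest in mutant 9b, at 1612 and 2058. Srsf11, which encodes the SR-related protein p54, had -0.35 (95% interval -0.71 to 0.02). Srsf10, a repressor of splicing when dephosphorylated, had -0.58, which came from 1 array: mutants 2 and 6 read 1464 and 1356, within the wild-type range of 1068 to 1670, and 8a read 350.9, below the floor. Without 8a its estimate was 0.05.

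Srsf3, Srsf4 and Srsf5 had estimates close to 0. Srsf3, the smallest SR protein, had -0.10 (95% interval -0.70 to 0.50), and 0.15 without 9b. Srsf4 (SRp75) had 0.06 with an interval of -1.24 to 1.36, since wild-type values ran from 406.2 to 1644. Srsf5 (SRp40) read 4165, 3608 and 2863 in wild type and 4196, 3295 and 3137 in mutants, with a fold change of 0.00 (95% interval -0.40 to 0.41). Its interval lies above both Srsf6 estimates.

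Set against Srsf6, 5 of the 10 other SR sets had an interval wholly above the type b estimate of -1.31, and 0 had an estimate as low. Against the type a estimate of -0.61, 1 of 10 had an interval above it and 4 had an estimate as low or lower. These counts leave out the error of the Srsf6 estimates themselves. Of the 10 intervals, 8 held 0. Among all 61 other member sets, 52 had an interval above the type b estimate and 26 above the type a estimate, and 8 had an estimate as low as the latter.

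**Figure D2:**
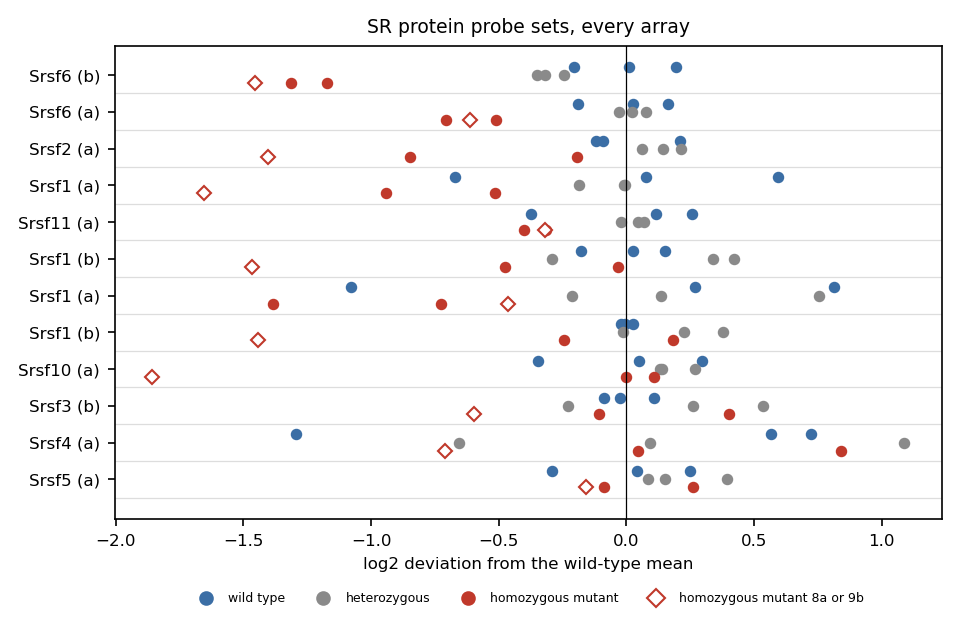
Each array's log2 deviation from the wild-type mean (horizontal axis) for the 12 SR protein probe sets, array type in brackets, coloured by genotype; open diamonds are homozygous mutant arrays 8a or 9b. Both Srsf6 sets and Srsf2 have all 3 mutant arrays left of every wild-type array, as did 8.57% of all tested probe sets. In 7 of the 12 sets the diamond is the lowest of all 9 points, against 24.2% of all tested probe sets.

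Across the members, 1 of 63 probe sets passed an adjusted p of 0.05 in the direction of lower in the mutant, where 0.187% of all tested probe sets did. At an unadjusted p under 0.05, 14 member sets (22.2%) were lower, against 5.48% of all tested, and 1 (1.59%) was higher, against 5.72%. The mutant and wild-type arrays did not overlap, mutant lower, in 12 member sets (19.0%), against 8.57% of all, and mutant higher in 2 (3.17%), against 7.38%. Estimates were below 0 in 44 sets (69.8%), against 53.0% of all. Without arrays 8a and 9b these shares drew closer: 8 of 63 sets (12.7%) were lower at the unadjusted level, against 6.15% of all tested, and 38 (60.3%) were below 0, against 50.2%. Mutants 2 and 6 lay below all wild-type arrays in 15 sets (23.8%), against 14.5% of all. The members as a group were not tested.

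**Figure D3:**
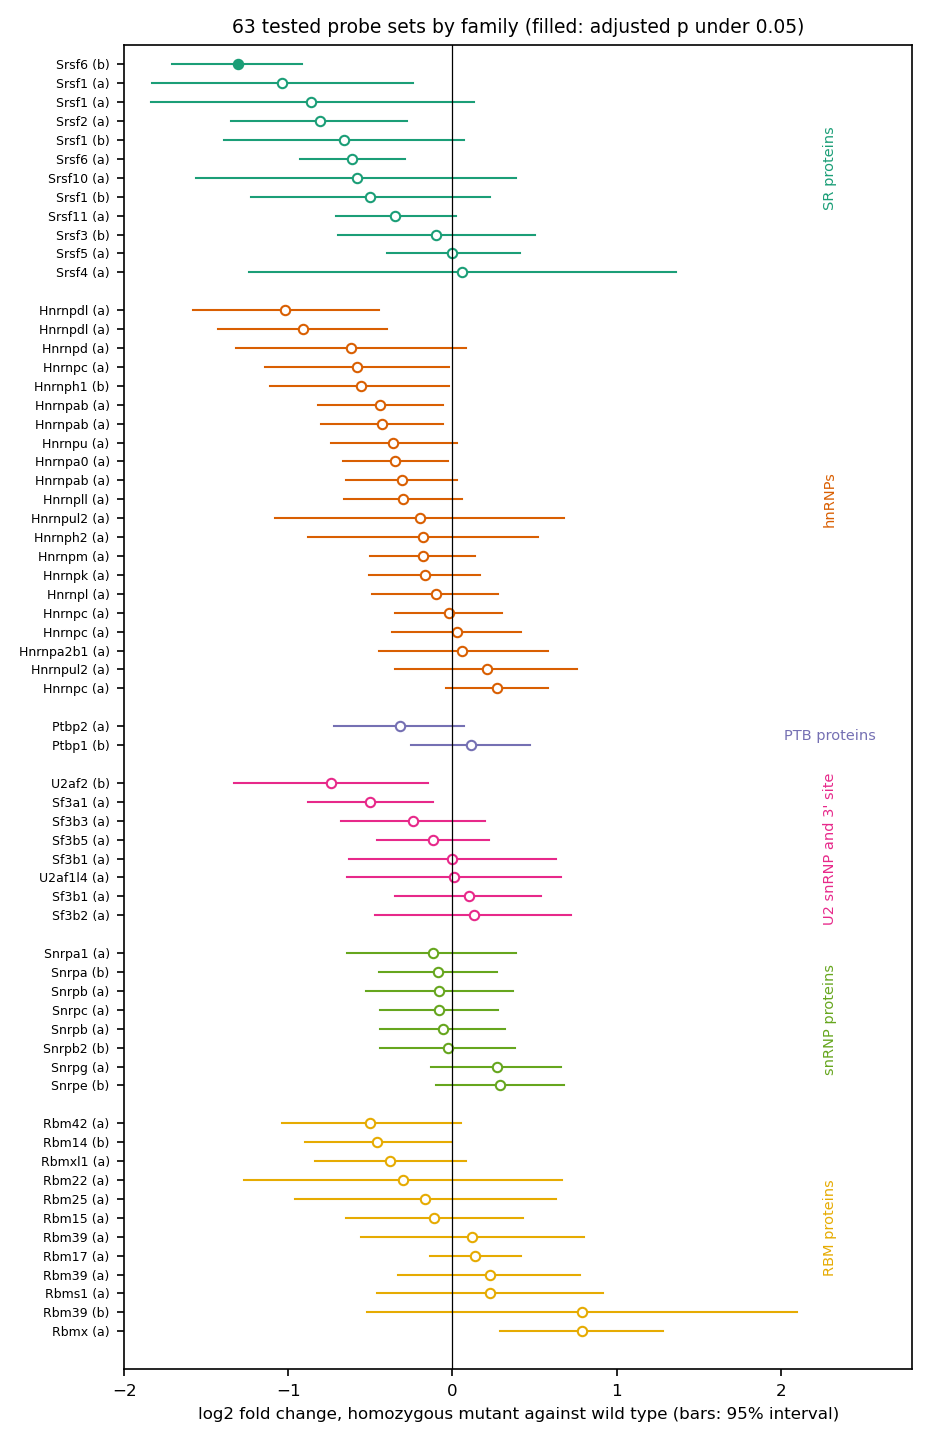
Log2 fold change of homozygous mutant against wild type (horizontal axis) with 95% intervals for the 63 tested member probe sets, grouped by family and sorted within it; the filled point passed an adjusted p of 0.05, and Ptbp1, below the floor in all wild-type arrays, is plotted at its fitted value. Only the type b set of Srsf6 is filled. Points left of 0 are 10 of 12 for SR proteins, 17 of 21 for hnRNPs and 6 of 8 for snRNP proteins. They are 6 of 12 for RBM proteins and 4 of 8 for U2 snRNP and 3′ splice site factors. Over all tested probe sets 53.0% were below 0.

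The median log2 fold change of mutant against wild type was -0.60 over the 12 SR sets, -0.30 over the 21 hnRNP sets, -0.17 over all 63 member sets and -0.02 over all tested probe sets. It was -0.07 for the 8 sets of snRNP proteins, -0.06 for the 8 sets of the U2 snRNP and 3′ splice site factors and 0.00 for the 12 RBM sets. The 12 SR sets include both sets of Srsf6 and several sets of Srsf1, so genes with more sets weigh more. With 1 set per gene, the SR median was -0.42 over 8 genes, Srsf6 included, with 6 below 0. The hnRNP median was then -0.25 over 14 genes, with 12 below 0. The SR median over the 12 sets rested in part on mutant arrays 8a and 9b. These are treated here as 1 replicate, though the labels number them differently and do not say whether they hold the same RNA. In mutant 2, mutant 6 and the pair 8a and 9b the SR median deviated from the wild-type mean by -0.44, -0.14 and -1.06. It deviated by -0.09, 0.03 and 0.16 in wild type and by 0.10, 0.06 and 0.11 in heterozygous replicates. Without 8a and 9b the SR median was -0.31, with 8 of 12 sets below 0, and the hnRNP median -0.20, with 14 of 21 below 0. Arrays 8a and 9b were the lowest of 9 in 42.9% of the tested member sets, against 24.2% of all tested probe sets.

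**Figure D4:**
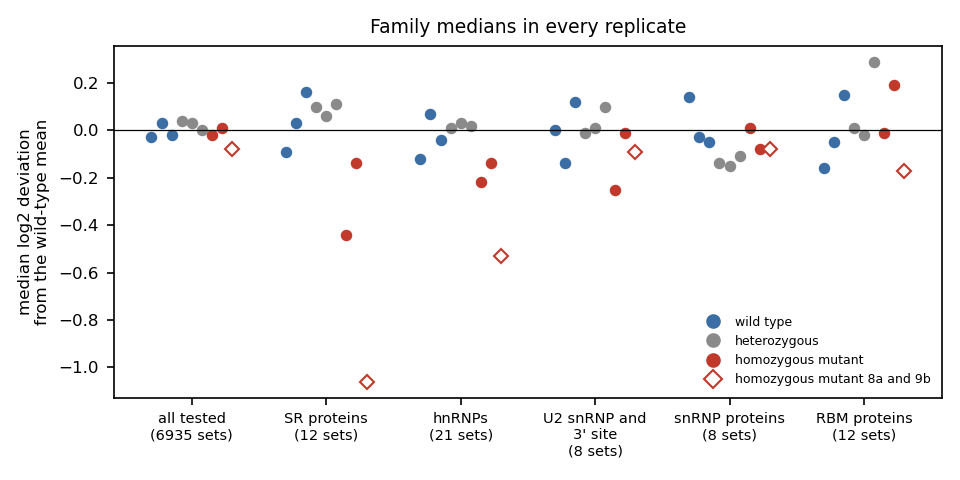
Median log2 deviation from the wild-type mean (vertical axis) of each family's probe sets in every replicate, coloured by genotype, with open diamonds for the homozygous mutant arrays 8a and 9b. All 3 mutant medians lie below the wild-type medians for SR proteins and hnRNPs, from -0.14 down to -1.06 and from -0.14 down to -0.53, while over all tested probe sets no replicate leaves the range -0.08 to 0.04. The gap is narrow, since wild type 1 lies at -0.09 for SR proteins and -0.12 for hnRNPs.

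Marker genes of other cell types also differed between the genotypes' arrays. For the neural tube and neurons, all 11 tested genes of a list of 18 had estimates below 0 in the mutant, with a median of -0.80 (-0.63 without 8a and 9b), though none passed the threshold in limma and 5 had an unadjusted p under 0.05. Tubb3, a tubulin of neurons, had -1.95 (adjusted p = 0.0609), and Hes5, a Notch target of neural progenitors, -1.07 (adjusted p = 0.082). The summed intensity of the list ran from 16323 to 24888 in wild type, 19081 to 23432 in heterozygous embryos and 8589 to 20742 in mutants on type a. On type b it ran from 5788 to 9470, 6137 to 7607 and 2600 to 4966. The list's median deviation was -0.54, -0.53 and -0.92 in the mutant replicates. Markers of gut and surface epithelium lay the other way, with a median of 0.67 over 6 tested of 10 (0.56 without 8a and 9b), 4 of them higher at an unadjusted p under 0.05. Of these Krt19, a keratin, rose by a log2 fold change of 2.38 (limma adjusted p = 0.00141). The tested genes of the list outside these 4, Foxa1 and Foxa2, were below 0, at -0.23 and -0.10. Heart markers had a median of 0.12 over 9 genes (-0.31 without 8a and 9b), with median deviations of -0.59, 0.00 and 0.84 in mutant 2, mutant 6 and the pair 8a and 9b, and endothelial markers 0.17 over 5 genes (-0.05 without them), with -0.11, 0.05 and 0.78. Single heart markers lay on both sides, with Nppb at -1.15 (limma adjusted p = 0.129) and Myl3 at 0.85 (adjusted p = 0.355). The Myl3 set read 28777 on 9b. Medians were 0.23 for mesenchyme, 0.00 for red blood cells and 0.17 for liver bud and visceral endoderm (0.41, -0.27 and 0.09 without 8a and 9b). For cell cycle genes the median was -0.14, and 15 of 21 (71.4%) were below 0, against 53.0% of all tested probe sets. At an unadjusted p under 0.05 in limma, 4 of them (19.0%) were lower, against 5.48% of all tested. None was higher, against 5.72%. The part of tissue makeup and of the control signals of 8a and 9b in the SR and hnRNP values was not tested.

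Among the hnRNPs, 7 of 21 sets (33.3%) were lower at an unadjusted p under 0.05, against 5.48% of all tested, and none passed the adjusted threshold in limma. Without 8a and 9b the count was 2 of 21 (9.52%), both of Hnrnpdl, against 6.15% of all tested. Hnrnpdl, whose product binds AU-rich RNA and regulates its own splicing, had the lowest fold changes of the family on both its sets. The first read 3745, 3157 and 2915 in wild type, 3071, 2286 and 4117 in heterozygous embryos, and 1772, 2008 and 1168 in mutants. The second read 2377, 3216 and 3935, then 3208, 2456 and 3331, then 1656, 2038 and 1335. In both, every mutant array lay below all others. The log2 fold changes were -1.02 (95% interval -1.58 to -0.45, limma adjusted p = 0.12) and -0.91 (-1.43 to -0.40, adjusted p = 0.125), and -0.79 and -0.76 without 8a.

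Hnrnpab, which encodes a protein of the A/B type that binds messenger RNA in nucleus and cytoplasm, had 3 tested sets at -0.43, -0.44 and -0.31, and at -0.33, -0.28 and -0.27 without 8a. Its brightest set ran from 20926 to 28901 in wild type and from 19083 to 20674 in mutants, without overlap. Hnrnpa0 had -0.35 and also did not overlap (16552 to 19695 against 12397 to 16096), with an adjusted p of 0.391 in limma, and had -0.26 without 8a. Hnrnph1, which binds runs of G, had -0.56, with mutant 9b at 4553 and mutants 2 and 6 at 8737 and 8388, beside wild-type values from 8447 to 11638. Without 9b its estimate was -0.26. Hnrnpc, a binder of uridine tracts, differed by probe set. Its dimmest set had -0.58, with 8a at 824.9, and -0.32 without 8a, and the other 3, which carry the suffix for sets matching a gene family, had 0.27, 0.03 and -0.02. The suffixed sets may read related sequences, and 9 member sets in all carry that suffix.

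The remaining hnRNP sets lay between -0.62 (Hnrnpd, -0.28 without 8a) and 0.21 (1 set of Hnrnpul2, 0.15 without 8a). The other set of Hnrnpul2 had -0.20, with 8a at 550.4, and 0.37 without 8a. Hnrnpu had -0.36 (-0.16 without 8a), Hnrnpll -0.30 (-0.20), Hnrnph2 -0.18 (0.11), Hnrnpm -0.18, Hnrnpk -0.17, Hnrnpl -0.10 and Hnrnpa2b1 0.06. All of these intervals held 0. Of the polypyrimidine tract binding proteins, Ptbp2, the form of neurons, had -0.32, with values from 286.3 to 536.9 around the floor. Ptbp1, also known as hnRNP I, was below the floor on all 3 wild-type arrays and on 2 of 3 mutant arrays, so no fold is given for it.

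The factors that mark the branch site and the 3′ splice site gave 2 sets of 8 in which mutant arrays lay below wild type without overlap, against 8.57% of all tested. Sf3a1, a subunit of the SF3A complex of the U2 snRNP, read 3552, 2921 and 3734 in wild type, 3286, 3932 and 3659 in heterozygous embryos and 2006, 2576 and 2644 in mutants. Its log2 fold change was -0.50 (95% interval -0.88 to -0.12, limma adjusted p = 0.287), and -0.57 without 8a. U2af2, the large subunit of U2AF that binds the polypyrimidine tract, read 2180, 3120 and 2045 in wild type, 2456, 3114 and 2654 in heterozygous embryos and 1409, 1856 and 1136 in mutants. Its log2 fold change was -0.74 (-1.33 to -0.15, adjusted p = 0.316), and -0.57 without 9b. Subunits of SF3B had smaller estimates. Sf3b3 had -0.24, and -0.48 without 8a, which read 9870 beside 5810 and 6088 in mutants 2 and 6. Sf3b5 had -0.12, Sf3b2 0.13 and Sf3b1 0.10 and 0.00, and over all arrays these intervals and that of Sf3b3 held 0. Without 8a the Sf3b1 set at 0.00 had 0.38. U2af1l4, a relative of the small U2AF subunit, had 0.01, and -0.21 without 8a.

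Proteins of the snRNPs were the family with the narrowest range, from -0.12 to 0.29. Snrpb, a core Sm protein, had -0.08 and -0.06, Snrpa of U1 had -0.09, Snrpc of U1 -0.08 and Snrpb2 of U2 -0.03. The sets of Snrpe and Snrpa and 1 set of Snrpb carry the suffix for sets matching a gene family, so they may read related sequences. Snrpe, another Sm protein, read 21261, 19529 and 23482 in wild type and 25849, 25556 and 27057 in mutants. These groups did not overlap, and the log2 fold change was 0.29 (95% interval -0.10 to 0.68, limma adjusted p = 0.584). Snrpg, also of the Sm ring, had 0.27, and 0.10 without 8a, which read highest of all arrays at 20471.

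Rbmx, the X-linked hnRNP G, was the member with the lowest p-value in the direction of higher in the mutant. It read 417.3, 369.2 and 391.8 in wild type, 631.3, 699.5 and 657.4 in heterozygous embryos and 794.4, 792.1 and 499.0 in mutants. The wild-type arrays lay below all others, and one of them below the floor of 375.1, so the fold is understated. The log2 fold change was 0.79 (95% interval 0.29 to 1.28, limma adjusted p = 0.174), and 1.01 without 8a (adjusted p = 0.064). Rbmxl1, a near copy of Rbmx, had -0.38, and -0.20 without 8a. Whether the Rbmx and Rbmxl1 sets take up each other's signal was not tested. Rbm14, a coactivator with RNA recognition motifs, had -0.46 (adjusted p = 0.439), with mutants from 4972 to 5945 below wild type from 6041 to 8596. Rbm42 had -0.50 on type a (95% interval -1.04 to 0.05), and -0.66 without 8a. Rbm39, a cofactor of U2AF, had 0.79, 0.23 and 0.12 on its 3 sets, the first with an interval of -0.52 to 2.10, and 1.41 without 9b. The other RBM sets (Rbm15, Rbm17, Rbm22, Rbm25 and Rbms1) lay between -0.30 and 0.23. Without 8a Rbm22 had -0.60 and Rbms1 0.61.

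**Figure D5:**
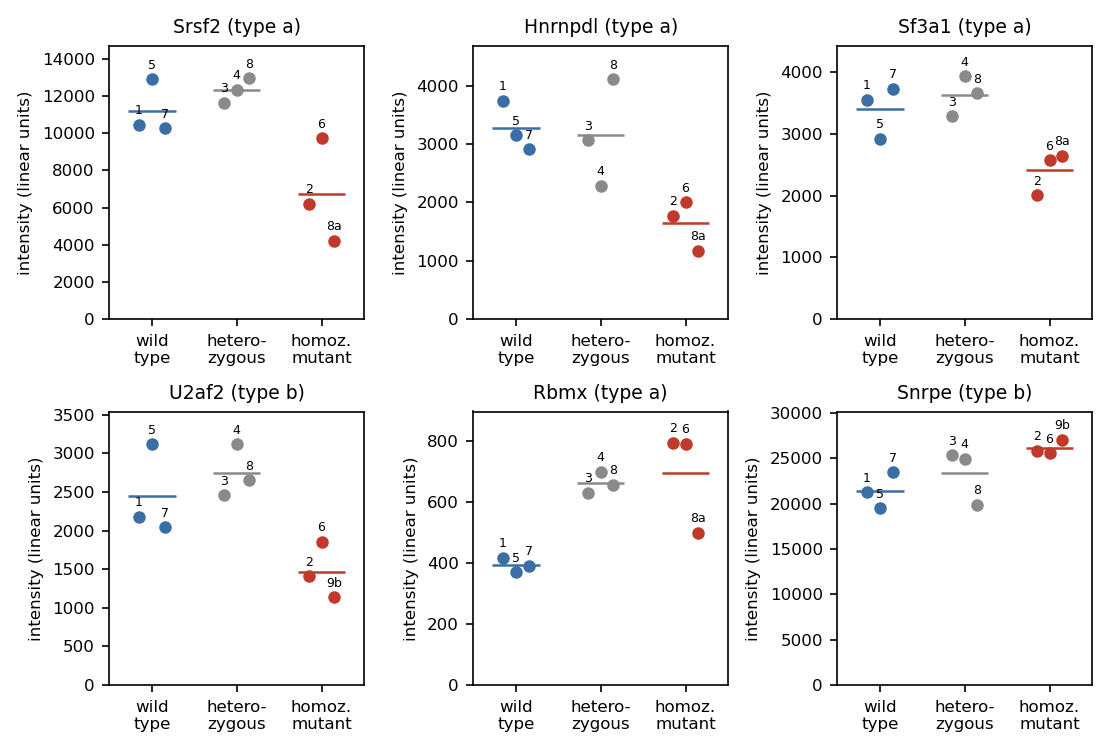
Intensity (vertical axes, linear units, from 0) on every array by genotype for 6 other members; points carry replicate numbers and bars are means of 3 arrays. Srsf2, the brighter-in-wild-type set of Hnrnpdl, Sf3a1 and U2af2 have mutant arrays below all wild-type arrays, and Rbmx and Snrpe have them above. None of these passed an adjusted p of 0.05. The Snrpe set carries the suffix for sets matching a gene family.

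In heterozygous embryos 0 of 63 member sets differed from wild type in limma, as did 0% of all tested probe sets, and the smallest adjusted p was 1. At an unadjusted p under 0.05 there were 2 members. Rbmx was higher by 0.75, in a background of 1.27% of all tested probe sets, and Snrpa1, a U2 snRNP protein, was lower by a log2 difference of -0.67, in a background of 0.433%. Snrpa1 read 639.3, 859.9 and 540.4 in wild type and 84.6, 262.7 and 525.3 in heterozygous embryos, partly below the floor, and 661.3, 626.4 and 554.3 in mutants. Estimates were below 0 in 26 of 63 member sets (41.3%), against 43.6% of all tested. The SR median was 0.17 and that of all tested probe sets 0.03.

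Set against heterozygous embryos, the type b set of Srsf6 was again the 1 member that was lower in the mutant past the threshold, by a log2 fold change of -1.01 (95% interval -1.40 to -0.62, limma adjusted p = 0.0244), where 0.418% of all tested probe sets were called lower. The same mutant arrays enter both comparisons, so they are not independent. The call was lost without heterozygous 3, 4 or 8 or mutant 2, with adjusted p-values of 0.115, 0.126, 0.076 and 0.0736. The type a set had -0.63 (adjusted p = 0.0654). Mutant arrays lay below all heterozygous arrays in 19 member sets (30.2%), against 13.3% of all tested. Of the 12 SR sets 7 were among them: both Srsf6 sets, Srsf2, both type a sets of Srsf1, Srsf10 and Srsf11. Estimates were below 0 in 44 member sets (69.8%), against 57.5% of all tested. They were below 0 in 12 of 12 SR sets, with a median of -0.73, and -0.40 without 8a and 9b. With 1 set per gene, the SR median was -0.54 over 8 genes, Srsf6 included, and all 8 were below 0.

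Other genes of the splicing pathway were read at the brightest set of each gene, and in none of 3 lists did any gene rise or fall in the mutant by limma. Over all tested probe sets 5.48% were lower and 5.72% higher at an unadjusted p under 0.05, and 53.0% were below 0. Partners and kinases of SR proteins had 18 of 27 genes tested, 11 below 0 (61.1%) and a median of -0.17, with 1 (5.56%) lower and 0 higher at an unadjusted p under 0.05. That gene was Alyref, an mRNA export adaptor, at -0.60 (adjusted p = 0.152). Tra2b, a splicing activator that binds GAA-rich enhancers, had -0.18, and the kinase Clk1, which phosphorylates SR proteins, 0.31. Other proteins of the spliceosome had 39 of 83 genes tested, 28 below 0 (71.8%) and a median of -0.14. At the unadjusted level 4 (10.3%) were lower and 1 (2.56%) was higher, Ddx17 at 0.32 (limma adjusted p = 0.352). Lsm2, of the U6 ring, had -0.59 (adjusted p = 0.2) and Sf1, the branch point binding protein, -0.57 (adjusted p = 0.282). Other regulators of splicing had 22 of 53 tested, 19 below 0 (86.4%) and a median of -0.22, with 5 (22.7%) lower and 0 higher at the unadjusted level. Safb, a scaffold attachment factor, read 2653, 2274 and 2987 in wild type and 1449, 1752 and 985 in mutants, a log2 fold change of -0.95 (adjusted p = 0.105). Sfpq, a paraspeckle protein, had -0.59 (adjusted p = 0.145) and Khdrbs1 (Sam68) -0.78 (adjusted p = 0.352). Elavl4 stands in both this list and that of neural genes.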

How the data were processed

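Total RNA of 18 arrays was analysed, 3 per genotype and array type. The deposited intensity per probe set is a linear value, and part of the values are negative. Some signal was therefore subtracted, and the sources used here do not say which. They name neither the array software nor how the authors scaled the values. The mean after trimming 2% at each end was 1500.0 on every array but heterozygous 8 of type b (1645.2), which lacks 499 values; no member lacks one. Symbols of the platform annotation were brought up to date by gene identifier (5551 of 5560 matched on type a, 1993 of 2001 on type b); 12 sets with several symbols were left out.

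Intensities were floored at 2 noise SD (noise SD 187.5 on type a and 261.5 on type b, from the size of negative values), and log2 was taken, so folds near the floor are understated. Each type was fitted with limma 3.58.1 in R 4.3.3 (lmFit, eBayes with trend, two-sided), the genotypes sharing 1 spread, with Benjamini-Hochberg adjustment over all 6935 tested probe sets and a threshold of 0.05. The script was tested on simulated data. The number of arrays limits the precision.

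Named members were every tested SR set, every called set, and the sets of smallest p and the brightest in each other family. Those of smallest p in the other comparisons were named too. The remaining members were named after their values were seen, as were Tra2b, Clk1, Ddx17, Tubb3, Hes5, Krt19, Nppb and Myl3. The members and lists were chosen with earlier results of these data known. Alternatives were the floor, the filter, the scaling, the samples in the fit, the variance trend, 1 set per gene and leaving out each replicate; member counts without arrays 8a and 9b were added after seeing the data.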

Additional observations from a re-analysis of the deposited data

How the results depend on the processing

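The fall of Srsf6 at the type b set kept its direction under all alternatives. Against wild type its log2 fold change ran from -1.42 to -1.22 when 1 replicate was left out. With only the 2 genotypes compared it was -1.31 (adjusted p = 0.0691) against wild type and -1.01 (adjusted p = 0.0726) against heterozygous, so 0 members were called in either comparison. Against heterozygous it ran from -1.08 to -0.94 with replicates left out. The number of called members ran from 0 to 1 against wild type (0 without wild type 5), and from 0 to 2 against heterozygous: 0 without heterozygous 3, 4 or 8 or mutant 2, and 2 without mutant 6, when Srsf2 joined Srsf6. Over all probe sets, 48 were called against wild type, 19 without the filter, 7 with only the 2 genotypes and 8 to 48 with 1 replicate left out; against heterozygous 80, 45, 41 and 15 to 72. The median of the SR sets against wild type ran from -0.86 to -0.31 and that of all members from -0.27 to -0.08 with replicates left out.

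Srsf10, at -0.58 over all arrays, changed sign to 0.05 without mutant 8a and ran from -0.93 to 0.05 with 1 replicate left out. Of the estimates near 0, Srsf4 had -0.10 with the floor at 3 noise SD and ran from -0.59 to 0.45 with 1 replicate left out, and others crossed 0 too: Srsf3 from -0.35 to 0.15, Srsf5 from -0.14 to 0.13, Snrpa1 from -0.28 to 0.06, and the sets of Snrpb from -0.24 to 0.12 and from -0.18 to 0.04. The cause was not tested. No paired analysis was possible because the genotypes compared share fewer than 2 replicate numbers.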

Other observations

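The probe sets of Srsf1 differed in how far the wild-type replicates lay apart. Wild type 1 read 959.2 and 787.8 on the type a sets, where wild type 7 read 2309 and 2926. On type b the same numbers read 3931 and 5570 against 4940 and 5688, a smaller spread in the same direction. The 3 sets of Rbm39 put the replicates in different orders: wild type 7 read 484.7 on the type b set, the lowest of its 9 arrays, and 4579 and 1774 on the type a sets, where wild type 1 was lowest at 2167 and 955.8.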
